A study of Homo sapiens with 204 samples.

Results

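The knockdown of RPS9, a protein of the small (40S) ribosomal subunit, was followed in A549 cells by RNA-seq and by ribosome profiling (Ribo-seq) of the same lysates. Its libraries were chosen by name: 2 lysates, each split into 1 RNA-seq and 1 Ribo-seq library, which makes 4 of the 204 samples. A549 is an established human lung adenocarcinoma line. Cells were transfected for 24 h with siRNA at 40 nM, directed against RPS9 or non-targeting, and received cycloheximide, which stops elongating ribosomes, shortly before lysis. The comparison groups were 6 control lysates with non-targeting siRNA (control numbers 11, 20 and 21 as the tables name them, with 2 lysates each) and 30 lysates of 15 other ribosomal protein knockdowns. Of those 15 targets, 11 belong to the small subunit (among them RPS3, RPS7, RPS10, RPS12, RPS15, RPS15A, RPS16 and RPS26) and 4 to the large subunit (RPL15, RPL21, RPL24 and RPL29). The labels title the last control pair 21 and 22, while the tables name it 21 replicates 1 and 2, so whether the pair is 1 control number is not settled. All groups share 1 cell line and a transient transfection, and the sequence of the RPS9 siRNA is not given in the sources used here. The series text calls the repeats biological replicates without saying whether cultures or days were separate, and the p-values then cover only the spread between lysates.

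RPS9 joins the 40S subunit early in its assembly and lies on the body of the finished subunit, near the channel through which mRNA enters. When ribosome assembly is disturbed, a complex of RPL5, RPL11 and 5S ribosomal RNA can bind MDM2, the ubiquitin ligase that keeps p53 low. A549 cells carry wild-type p53, whose targets stop the cell cycle, repair DNA or start cell death. Footprints are the stretches of mRNA that a ribosome shields from nuclease, and their number set against the mRNA of the same lysate is a relative measure of how many ribosomes an mRNA carries.

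Levels are CPM, the counts of a gene per 1000000 counts of its library, after TMM scaling, which makes libraries comparable but not genes. Depth was 30.7 to 42.5 M counts (M, 1000000 counts) in the 8 RNA-seq libraries and 15.1 to 41.9 M counts in the 8 Ribo-seq libraries. The RNA-seq library of control 20 replicate 2 stood apart: its log2 levels differed from the mean of the other controls with an SD of 0.95 over 9946 genes, against 0.45 and 0.44 for the RPS9 libraries and 0.21 to 0.57 for the other 5 controls. In Ribo-seq the 6 controls lay at 0.22 to 0.50 and the RPS9 libraries at 0.52 each. The A549 label was checked on 14 lung epithelial and A549 markers, whose summed mRNA was 10660 and 10970 CPM in the RPS9 libraries and 6260 to 11900 CPM in the controls. Their summed footprints were 22370 to 23480 CPM after RPS9 knockdown, above the 11910 to 17060 CPM of the controls. Of the fibroblast markers COL1A2 and DCN, and of the blood cell markers PTPRC, had no mRNA reads in these 8 libraries, while other members had some. Summed mRNA of 7 fibroblast markers was 15.9 and 16.3 CPM after RPS9 knockdown beside 18.1 to 33.5 in the controls. For 6 blood cell markers it was 1.54 to 1.69 CPM beside 0.871 to 4.45. For 4 endothelial markers it was 0.253 to 0.298 CPM beside 0.121 to 0.531, and their summed footprints were 0.859 to 2.54 CPM beside 0 to 0.174.

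RPS9 itself was low in both assays. RPS9 mRNA was at 25.2 and 28.3 CPM in the RPS9 libraries, and at 295 to 758 CPM in the 6 controls with a median of 452. RPS9 footprints were at 24.6 and 27.4 CPM, and at 281 to 573 CPM in the controls with a median of 397. The groups did not overlap in either assay. The log2 fold change was -4.11 ± 0.28 (± SE) for mRNA, with an adjusted p = 1.3e-10 by edgeR's quasi-likelihood test with Benjamini-Hochberg adjustment, which is the test behind every adjusted p that follows. It was -3.98 ± 0.24 for footprints (adjusted p = 1.1e-12). The log2 ratio of footprints to mRNA was -0.04 and -0.05 in the RPS9 lysates, within the control range of -0.97 to 0.32, and the difference of 0.09 ± 0.22 was not called (adjusted p = 0.88). In the 15 other knockdowns the target means of RPS9 ran from 203 to 533 CPM for mRNA and from 255 to 519 CPM for footprints. The gene lies on chromosome 19 from 54200858 to 54207647 (GRCh38.p14, RefSeq).

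The response was broad. Of 15166 genes tested for mRNA, 1682 rose (11.1%) and 1943 fell (12.8%) at an adjusted p under 0.05. Of 12445 tested for footprints, 1933 rose (15.5%) and 2322 fell (18.7%). The ratio of footprints to mRNA was tested on 12206 genes in 1 model over both assays, and 167 rose (1.37%) while 354 fell (2.9%), together 4.27%. Of these 12206 genes, 857 rose in both assays, 59.6% of the mRNA rises and 45.4% of the footprint rises. Another 1047 fell in both, 63.7% of the mRNA falls and 45.2% of the footprint falls. Of the 167 ratios that rose, 133 had called higher footprints and 35 had called lower mRNA. Of the 354 that fell, 254 had called lower footprints and 89 had called higher mRNA.

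The counts moved with the libraries and the error used. Without RPS9 replicate 1 the higher and lower counts were 857 and 678 for mRNA, 1241 and 1250 for footprints and 49 and 63 for the ratio. Without RPS9 replicate 2 they were 813 and 822 for mRNA, 1272 and 1181 for footprints and 33 and 37 for the ratio. Without control 20 replicate 2 they were 2427 and 2523 for mRNA and 416 and 526 for the ratio. A fit on the 8 libraries alone called 90 and 57 for mRNA, 820 and 917 for footprints and 4 and 3 for the ratio. Of 210 results of named genes against control, 103 kept their direction but lost their call in that fit. Among them were the mRNA calls of ATF4 (adjusted p = 0.15), AURKB (0.11), CCNB1 (0.13), RPL13A (0.21) and MDM2 (0.17). The mRNA calls of SDC1 (0.12), METAP2 (0.093), ALDH3A1 (0.18) and CDH1 (0.21) were lost there too. With 1 mean for RPS9 and 1 for each of the 3 control numbers of the tables, so that the spread between control numbers sets the error, limma called 0 genes for mRNA (367 at an unadjusted p under 0.05; DESeq2 on the lysates called 1798 and 2281), 3 higher and 3 lower for footprints (1180 at an unadjusted p under 0.05), and 2 higher and 0 lower for the ratio (144). RPS9, WEE1 and METAP2 were the 3 lower footprint calls, and the 3 higher were P2RY8, FSCN2 and CACNA1B, which passed the filter on low counts only through the RPS9 libraries. With the last control pair as 2 numbers, limma called 0 mRNAs (669 at an unadjusted p under 0.05), 3 higher footprints, WEE1 and METAP2 lower, and 1 higher and 0 lower for the ratio (256).

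Genes known to be induced by p53 rose. The members of this list and of the lists below were chosen with earlier results of these data known, so their counts are a description. Of 35 p53 targets measured, 23 rose and 1 fell in mRNA, with a median log2 fold change of 0.93 beside -0.06 for all genes tested. In footprints 29 rose and 2 fell, with a median of 1.00 beside -0.04. Both RPS9 libraries lay above all 6 controls for 21 of the 35 in mRNA (13.1% of all genes tested did) and for 29 in footprints (16.4%). Leaving out an RPS9 library left 18 or 20 mRNA rises and 25 or 26 footprint rises, and the fit on the 8 libraries alone called 9 and 22.

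CDKN1A, the inhibitor of cyclin-dependent kinases that carries out much of the p53 arrest, had 409 and 417 CPM of mRNA after RPS9 knockdown and 136 to 247 in the controls, with a median of 178. Its footprints were at 366 and 259 CPM, and at 64.6 to 127 in the controls with a median of 81.7. Both assays lay above all controls, with log2 fold changes of 1.21 ± 0.14 (adjusted p = 9.2e-07) and 1.77 ± 0.17 (adjusted p = 7.9e-09). MDM2, the p53 ubiquitin ligase and itself a p53 target, had 479 and 388 CPM of mRNA beside 53.7 to 254 in the controls (median 161), and 397 and 436 CPM of footprints beside 60.7 to 132 (median 72.6). The groups were apart in both assays, and the changes were 1.39 ± 0.30 (adjusted p = 0.0012) and 2.24 ± 0.18 (adjusted p = 1.8e-10). In the fit on the 8 libraries alone the MDM2 mRNA rise of 1.40 was not called (adjusted p = 0.17).

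XPC, a DNA damage sensor of nucleotide excision repair, had the smallest p of the p53 targets in both assays. XPC mRNA was at 98.3 and 98.7 CPM beside 26.3 to 30.8 in the controls, and its footprints were at 135 and 117 CPM beside 24.3 to 36.4. The rises were 1.84 ± 0.07 (adjusted p = 8.9e-16) and 2.06 ± 0.10 (adjusted p = 8.0e-15). BTG2, an anti-proliferative regulator of mRNA decay, had 54.8 and 55.0 CPM of mRNA beside 12.9 to 19.9 (1.79 ± 0.11), and its footprints rose by 2.21 ± 0.16. CYFIP2, a subunit of the actin-regulating WAVE complex, was at 227 and 231 CPM of mRNA beside 63.3 to 89.7 (1.69 ± 0.09). In mRNA SPATA18, which acts in mitochondrial quality control, rose by 1.94 ± 0.15, and FDXR, the mitochondrial ferredoxin reductase, by 1.78 ± 0.23. DDB2, another damage sensor, was at 172 and 163 CPM of footprints beside 64.2 to 76.1 (1.28 ± 0.08).

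The p53 targets that fell were APAF1 and CCNG1, named here after their values were seen. APAF1, the scaffold of the apoptosome, had 21.9 and 18.4 CPM of mRNA, within the control range of 14.5 to 40.3 (-0.67 ± 0.22, adjusted p = 0.026), and the call was lost without RPS9 replicate 1 or 2 (adjusted p = 0.095 and 0.26). Its footprints, at 15.9 and 18.9 CPM, were below the controls at 30.2 to 58.5 (-1.23 ± 0.20, adjusted p = 2.8e-05). CCNG1, cyclin G1, had 61.0 and 74.6 CPM of footprints beside 88.2 to 187 (-0.85 ± 0.22, adjusted p = 0.0036; 0.097 without RPS9 replicate 1).

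Against the 15 other knockdowns, 3 of the 35 p53 targets were higher in mRNA and 0 lower (1.91% and 2.26% of all genes were called), and 8 were higher and 2 lower in footprints (4.64% and 4.61%). The CDKN1A difference was 0.25 ± 0.13 in mRNA and not called (adjusted p = 0.38), with 9 of the 15 target means below that of RPS9. MDM2 footprints were higher by 0.80 ± 0.16 (adjusted p = 0.0015; 0.094 without RPS9 replicate 2).

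**Figure D1:**
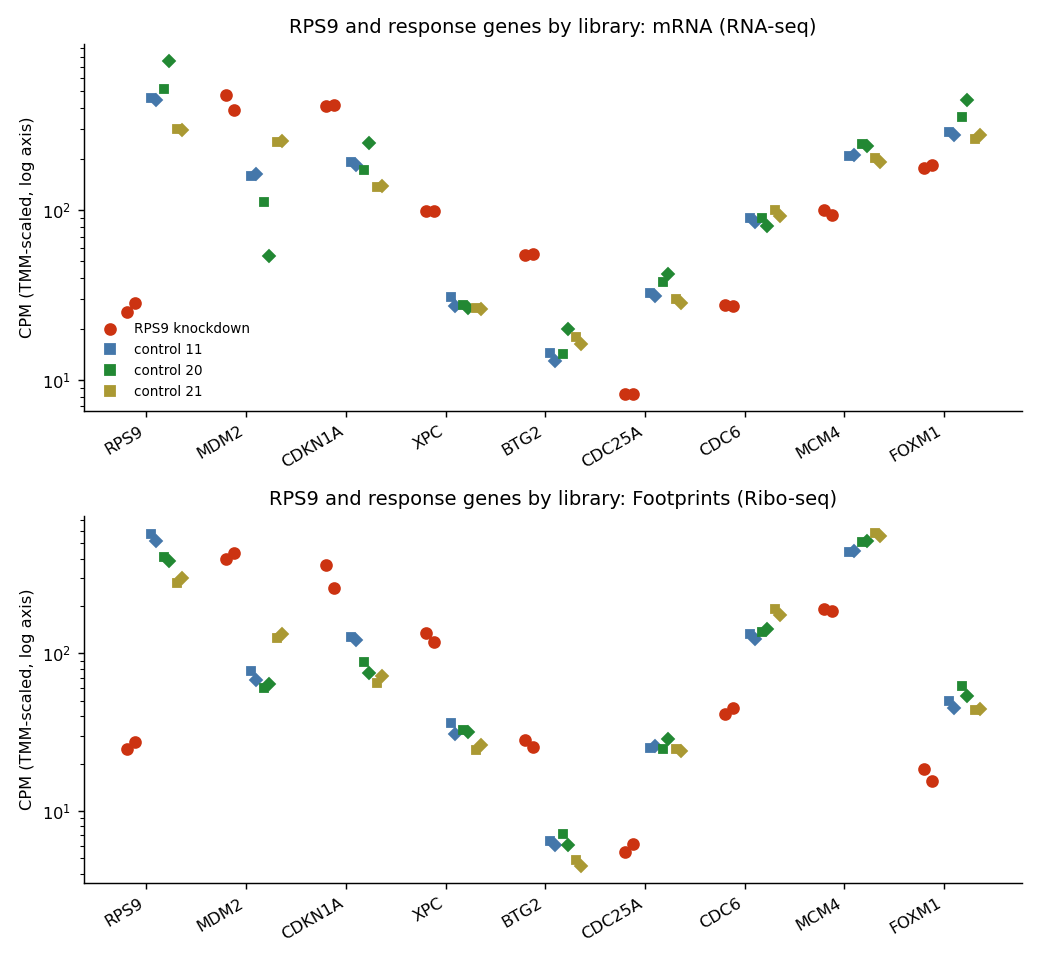
Levels of RPS9, 4 p53 targets and 4 cell cycle genes in each library, in CPM on a log axis, for mRNA (top) and footprints (bottom); red circles are the RPS9 lysates, squares and diamonds are replicates 1 and 2 of controls 11, 20 and 21. The RPS9 lysates lie below all 6 controls for RPS9, CDC25A, CDC6, MCM4 and FOXM1 and above them for MDM2, CDKN1A, XPC and BTG2, as with CDKN1A mRNA at 409 and 417 CPM beside 136 to 247.

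Genes of the G1/S transition and DNA replication fell. Of 44 measured, 35 fell and 0 rose in mRNA (median -0.85), and 40 of 43 fell and 0 rose in footprints (median -1.01). Both RPS9 libraries lay below all controls for 30 genes in mRNA (12.8% of all genes tested did) and for 38 in footprints (17.8%). CDC6, which loads the replicative helicase, had 27.6 and 27.2 CPM of mRNA beside 81.2 to 99.8 in the controls, with no overlap (-1.71 ± 0.12, adjusted p = 2.0e-10). CDC25A, the phosphatase that activates cyclin-dependent kinases, had 8.34 and 8.26 CPM of mRNA beside 28.5 to 42.3, and 5.47 and 6.19 CPM of footprints beside 23.9 to 28.4. Neither assay overlapped, and the changes were -2.02 ± 0.17 (adjusted p = 6.7e-09) and -2.12 ± 0.13 (adjusted p = 1.6e-12). MCM4, a helicase subunit, was at 100.0 and 94.1 CPM of mRNA beside 193 to 245 (-1.16 ± 0.09) and at 191 and 186 CPM of footprints beside 442 to 582 (-1.43 ± 0.10). In footprints RRM2, the small subunit of ribonucleotide reductase, fell by 1.35 ± 0.09 and E2F1, a transcription factor of this programme, fell by 2.38 ± 0.39. Without an RPS9 library 25 or 27 mRNA falls and 35 or 34 footprint falls were called, and the fit on the 8 libraries alone called 5 and 33.

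Against the other knockdowns 6 of the 44 G1/S genes were lower in mRNA and 12 of 43 in footprints (2.26% and 4.61% of all genes were), and 0 were higher. CDC25A differed by -1.11 ± 0.15 in mRNA (adjusted p = 5.2e-05) and -1.02 ± 0.12 in footprints (adjusted p = 8.8e-07), and 2 of the 15 target means were below that of RPS9 in each assay. For 40 mitotic genes 0 were called in mRNA and 2 were lower in footprints, near the 4.61% of all genes.

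Mitotic genes fell against control. Of the 40, 26 fell and 0 rose in mRNA (median -0.76), and 38 fell and 0 rose in footprints (median -0.80), while 12.8% and 18.7% of all genes tested fell. CCNB1, cyclin B1, had 111 and 114 CPM of mRNA beside 156 to 211 (-0.64 ± 0.11, adjusted p = 9.2e-05). AURKB, the chromosomal passenger kinase, had 40.0 and 43.6 CPM of mRNA beside 69.2 to 160.3 (-1.26 ± 0.21). FOXM1, which drives transcription of these genes, had 18.6 and 15.4 CPM of footprints beside 43.7 to 62.2 (-1.55 ± 0.14), and CDC20, an activator of the anaphase-promoting complex, fell by 1.10 ± 0.09 in footprints. The mRNA falls numbered 14 or 13 without an RPS9 library, 37 without control 20 replicate 2 and 0 in the fit on the 8 libraries alone, and the footprint falls 25 or 32 without an RPS9 library and 27 in that fit.

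Replication-dependent histone genes, transcribed in S phase, fell in large part, while 12.8% of all genes tested fell in mRNA and 18.7% in footprints. Of 54 genes, 45 were tested for mRNA, where 40 fell and 0 rose (median -1.02), and 48 for footprints, where 40 fell and 3 rose (H2AC8, H2BC9 and H3C8, named after their values were seen; 0 rose without RPS9 replicate 2). H2AC11 was at 143 and 138 CPM of mRNA beside 272 to 664 (-1.46 ± 0.23), and H3C10 at 499.9 and 436 CPM of footprints beside 967 to 1192 (-1.22 ± 0.10). The mRNA falls numbered 28 or 33 without an RPS9 library and 0 in the fit on the 8 libraries alone. Histone genes share near-identical sequence and the counting rule is not given in the sources used here, so the share of reads each gene received is uncertain.

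**Figure D2:**
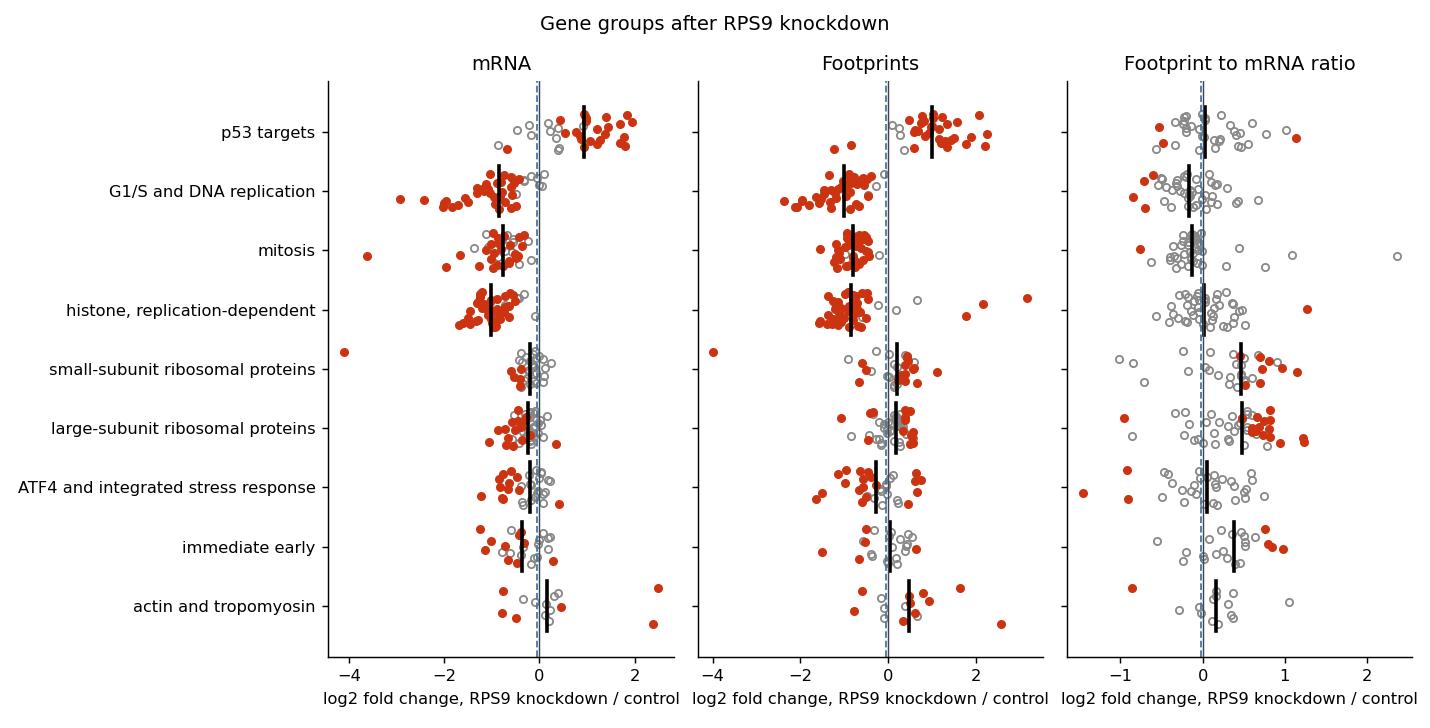
Log2 fold change of each gene in 9 groups, RPS9 knockdown against control, for mRNA, footprints and their ratio; filled red points passed the test, open grey points did not, black bars are group medians and the dashed blue line is the median of all genes tested. The p53 targets have medians of 0.93 and 1.00 in mRNA and footprints and the G1/S genes -0.85 and -1.01, while in the ratio the ribosomal protein groups have medians of 0.46 and 0.48.

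Ribosomal protein genes other than RPS9 moved less, and differently in mRNA and footprints. In mRNA RPS9 and 5 of the other 32 small-subunit genes fell and 0 rose (median -0.19), near the 12.8% of all genes that fell, and 16 of 47 large-subunit genes fell and 1 rose (median -0.24). In footprints 13 of 31 small-subunit genes rose and 4 fell, with RPS9 among the falls (median 0.21). Of the large-subunit genes 10 of 45 rose and 4 fell (median 0.17), while 15.5% of all genes rose and 18.7% fell. In the ratio 8 of 31 and 15 of 45 rose and 0 and 1 fell, with medians of 0.46 and 0.48 beside -0.02 for all genes. The 31 genes, all small-subunit medians and the small-subunit counts that follow include RPS9. Both RPS9 lysates lay above all controls in the ratio for 9 small-subunit and 22 large-subunit genes (4.26% of all genes tested did). Without RPS9 replicate 1 or 2, the small subunit had 2 or 3 mRNA falls, 5 or 11 footprint rises and 2 or 3 ratio rises, and the large subunit had 4 or 6 mRNA falls, 9 or 8 footprint rises and 3 or 6 ratio rises. The fit on the 8 libraries alone called 1 fall in small-subunit mRNA (of 33, RPS9 included), 5 small-subunit and 7 large-subunit footprint rises, no large-subunit mRNA change and no ratio of either subunit, and without control 20 replicate 2 the small-subunit mRNA median was -0.05. Ribosomal protein genes have many near-identical pseudogenes, so that single counts are uncertain.

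Many ribosomal protein mRNAs begin with a C and a run of pyrimidines, the terminal oligopyrimidine (TOP) motif through which mTORC1 and LARP1 regulate their translation. The starts of RPS9 and of 7 genes whose ratio is described here are printed so that the motif can be read beside the values, with 10 bases before and 15 from the annotated first transcribed base (RefSeq, GRCh38.p14, 5′ to 3′ on the gene's strand). Capitals mark the unbroken pyrimidine run from that first base. RPS9 starts on chromosome 19 at 54200858, RPS23 on chromosome 5 at 82278354, RPL13A on chromosome 19 at 49487608 and EEF2 on chromosome 19 at 3985463. EIF4B starts on chromosome 12 at 53006456, CCNI on chromosome 4 at 77075989, HEXIM1 on chromosome 17 at 45148475 and NTAN1 on chromosome 16 at 15056074.
RPS9: gcttccgcgcCTCTTTCTCagtgac
RPS23: cggtgcttctCTCTTTCgctcaggc
RPL13A: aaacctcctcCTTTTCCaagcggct
EEF2: cgtcagcgttCTCTTCCgccgtcgt
EIF4B: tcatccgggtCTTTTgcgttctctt
CCNI: ctctcttcccCTCCCTCCCCagcct
HEXIM1: actgggagacagcagttggaagttg
NTAN1: ggggcaggacgaggcgggacgcgcg
The starts of HEXIM1 and NTAN1 have no pyrimidine run, and the others open with a C and at least 4 more pyrimidines on the sense strand. Such a start was found at 4.04% of 27305 annotated promoters, and 9744 of the 12206 genes tested for the ratio had an entry. Among 43 ribosomal protein genes with this start 11 ratios rose (25.6%, median 0.43), and among 18 without it 5 rose (27.8%, median 0.50). Only 1 annotated start per gene was read, so RPL3 with a run of 4 pyrimidines and RPS27A with a run of 0 count as without it. The group without the start may thus hold mRNAs that carry the motif, and a part of the motif in these ratios was not tested. Among other genes 6 of 505 with the start rose (1.19%), and 106 of 9178 without it (1.15%).

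RPS23, which lies at the decoding centre, had the smallest ratio p of the small subunit. Its log2 ratio was 1.60 and 1.53 in the RPS9 lysates and 0.40 to 0.78 in the controls, with no overlap (0.97 ± 0.12, adjusted p = 3.6e-05). RPS23 mRNA was at 332 and 375 CPM beside 443 to 472 (-0.38 ± 0.07; adjusted p = 0.052 without RPS9 replicate 1), and its footprints were at 1010 and 1086 CPM beside 585 to 798 (0.58 ± 0.11). The RPS23 ratio was also above all 15 other target means, by 0.85 ± 0.11 (adjusted p = 4.1e-04; 0.062 without RPS9 replicate 2).

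RPS19, needed for maturation of 18S ribosomal RNA, had 6609 and 5955 CPM of footprints beside 2532 to 3207 (1.11 ± 0.08, adjusted p = 6.6e-11), while its mRNA, at 986 and 1145 CPM, lay within the control range of 881 to 1750. The RPS19 ratio was 2.74 and 2.38 beside 0.82 to 1.68, a rise of 1.15 ± 0.16 (adjusted p = 5.9e-05). RPS3, at the mRNA entry channel, rose by 0.45 ± 0.08 in footprints. RPS12, RPS20 and RPS27A were the small-subunit genes other than RPS9 with called lower footprints, and each call was lost without either RPS9 library, with adjusted p from 0.055 to 0.25. RPS20, a protein of the subunit's head, fell in mRNA too, to 413 and 422 CPM beside 578 to 804 in the controls and 594 to 881 in the other knockdowns (-0.60 ± 0.10 and -0.71 ± 0.09).

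In the large subunit, RPL13A had a log2 ratio of -2.70 and -2.36 beside -4.47 to -3.29 (1.23 ± 0.21, adjusted p = 6.7e-04; 0.063 without RPS9 replicate 2). RPL13A mRNA was at 1230 and 1274 CPM beside 1667 to 4284 (-1.07 ± 0.22), while its footprints, at 189 and 248 CPM, overlapped the controls at 156 to 243. The RPL37A ratio rose by 0.82 ± 0.14 (adjusted p = 5.9e-04), and the call held without either RPS9 library but not in the fit on the 8 libraries alone (adjusted p = 0.43). RPL41, which encodes a very short peptide, was the 1 ratio that fell (-0.96 ± 0.22, adjusted p = 0.012; 0.086 and 0.27 without RPS9 replicate 1 and 2).

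RPL5 and RPL11 encode the proteins of the complex that binds MDM2. RPL11 was the large-subunit gene with a called rise in mRNA, at 457 and 494 CPM beside 339 to 436 (0.36 ± 0.09, adjusted p = 0.0057; 0.12 without RPS9 replicate 2). RPL11 footprints were at 1099 and 1026 CPM beside 676 to 845 (0.50 ± 0.08, adjusted p = 3.1e-05). RPL5 had 332 and 344 CPM of mRNA beside 363 to 468 (-0.29 ± 0.07) and 479 and 539 CPM of footprints beside 336 to 456 (0.37 ± 0.12, adjusted p = 0.019), and its ratio rose by 0.66 ± 0.14 (adjusted p = 0.0071). These RPL5 calls were lost without RPS9 replicate 1 for mRNA (adjusted p = 0.097), without replicate 2 for footprints (0.18) and without either for the ratio (0.063 and 0.14).

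Against the other knockdowns 11 of 31 small-subunit genes were higher in footprints and 1, RPS9, was lower (median 0.33), while 4.64% of all genes were higher and 4.61% lower. Of the 11, 6 were targets of those knockdowns (among them RPS3, RPS7, RPS15 and RPS16), so their own knockdown lowers the mean they were compared with. The other 5 were RACK1, RPS6, RPS19, RPS21 and RPS23. Of the large-subunit genes 7 of 45 were higher and 0 lower (median 0.25).

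**Figure D3:**
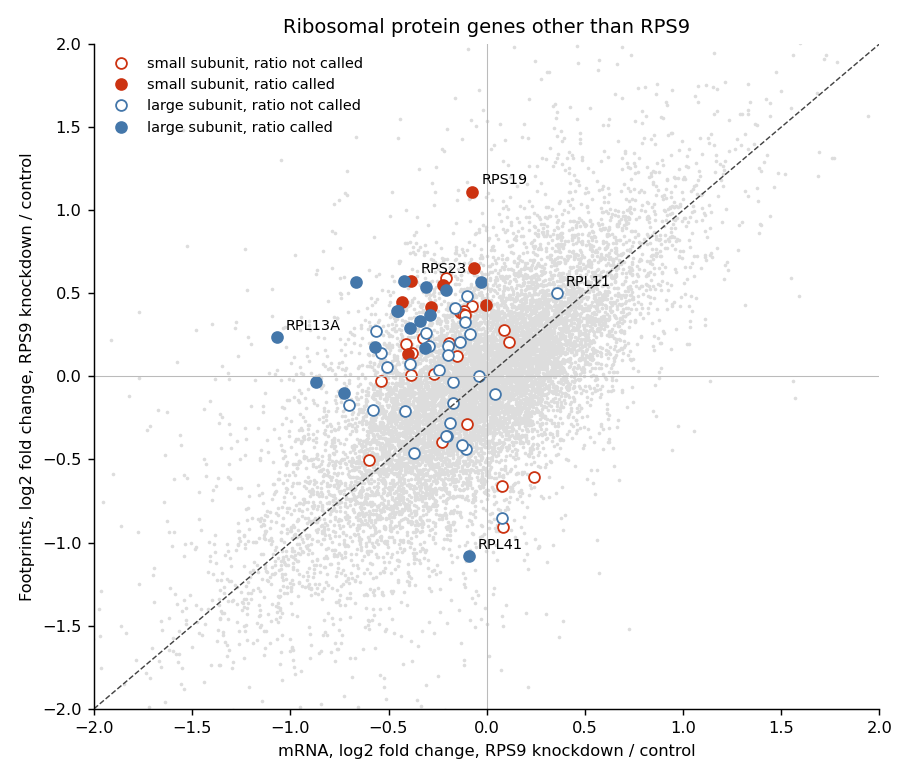
Log2 fold change in footprints against that in mRNA for ribosomal protein genes other than RPS9, RPS9 knockdown against control, in red for the small and blue for the large subunit; filled circles passed the test of the ratio, open ones did not, grey dots are all genes within the axes and the dashed line marks an equal change in both. Most ribosomal protein genes lie above the line, as RPS23 does with 0.58 ± 0.11 in footprints and -0.38 ± 0.07 in mRNA, while RPL41 lies below it.

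Of 9 translation elongation factor genes, 3 rose and 1 fell in footprints, beside 15.5% and 18.7% of all genes. EEF1G, EEF1D and EEF1B2, subunits of the exchange factor that reloads eEF1A, rose by 0.62 ± 0.13, 0.63 ± 0.16 and 0.36 ± 0.12, and the last 2 calls were lost without RPS9 replicate 1 (adjusted p = 0.13 and 0.61). In the ratio 2 of the 9 genes rose and 0 fell, with a median of 0.48 beside -0.02 for all genes, of which 1.37% rose and 2.9% fell. EEF2, the translocase, missed the threshold in the ratio (0.48 ± 0.15, adjusted p = 0.056). EIF4B, which stimulates the helicase eIF4A, had a log2 ratio of -2.44 and -2.60 beside -3.64 to -3.00, a rise of 0.88 ± 0.13 (adjusted p = 1.5e-04), with mRNA at 404 and 406 CPM beside 441 to 637 (-0.51 ± 0.09).

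Ratios also differed for genes outside the ribosome. HEXIM1, an inhibitor of the elongation kinase P-TEFb, named after its values were seen, had a log2 ratio of 0.56 and 0.32 beside -1.13 to -0.80 in the controls (1.42 ± 0.13, adjusted p = 2.7e-07). HEXIM1 footprints were at 237 and 191 CPM beside 46.7 to 77.6 (1.88 ± 0.13), and its mRNA at 160.2 and 152 CPM beside 95.8 to 141 (0.47 ± 0.12, adjusted p = 0.0056; 0.089 without RPS9 replicate 1). The HEXIM1 ratio was not called against the other knockdowns (0.23 ± 0.12, adjusted p = 0.8).

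NTAN1, an amidase of the N-degron pathway, had the lowest ratio change of the called genes at a mean of at least 5 CPM. Its log2 ratio was -3.59 and -3.73 beside -2.11 to -1.17 (-2.06 ± 0.24, adjusted p = 1.1e-05), with mRNA within the control range and footprints at 3.60 and 3.17 CPM beside 7.67 to 15.2. Both lysates lay below all controls in the ratio of NTAN1, as they did for 8.12% of all genes tested. CCNI, cyclin I, had 22.1 and 23.8 CPM of footprints beside 51.2 to 79.8 (-1.43 ± 0.19), while its mRNA, at 232 and 237 CPM beside 152 to 268, was not called (adjusted p = 0.22), and its ratio fell by 1.76 ± 0.25 (adjusted p = 9.0e-05). DUS1L, a tRNA dihydrouridine synthase, fell in the ratio by 1.56 ± 0.20, CHPT1, an enzyme of phosphatidylcholine synthesis, by 1.91 ± 0.25, AADAT, an aminotransferase, by 2.01 ± 0.28 and TTL, tubulin tyrosine ligase, by 1.57 ± 0.20. The ratio calls of HEXIM1, NTAN1, CCNI, DUS1L, CHPT1, AADAT and TTL held without either RPS9 library. In the fit on the 8 libraries alone those of CCNI (adjusted p = 0.22), AADAT (0.095) and TTL (0.084) were lost, and with 1 mean per control number none of the 7 was called by limma. KIF7, a kinesin of Hedgehog signalling, had the largest called rise at that mean level, 2.04 ± 0.35 (adjusted p = 8.1e-04), but its lysates stood at 0.69 and 1.90 and the call was lost without RPS9 replicate 2 (adjusted p = 0.12).

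Of 31 genes of the integrated stress response, in which blocked initiation raises the transcription factor ATF4 and its amino acid supply targets, 1 rose and 11 fell in mRNA (median -0.20), and 5 rose and 14 fell in footprints (median -0.28). Among all genes tested 11.1% rose and 12.8% fell in mRNA, and 15.5% and 18.7% in footprints, so the footprint rises were near that share. ATF4 had 269 and 279 CPM of mRNA beside 381 to 626 (-0.76 ± 0.13, adjusted p = 1.0e-04) and 6.60 and 4.80 CPM of footprints beside 15.4 to 19.6 (-1.64 ± 0.22, adjusted p = 1.4e-06). ATF4 footprints were also below all 15 other target means (-1.09 ± 0.20, adjusted p = 5.3e-04; 0.11 without RPS9 replicate 2). DDIT3, a transcription factor of prolonged stress, had 40.1 and 42.4 CPM of mRNA, within the controls at 36.6 to 46.6, and 4.78 and 7.34 CPM of footprints beside 12.9 to 21.1 (-1.51 ± 0.22). The DDIT3 ratio fell by 1.46 ± 0.20 (adjusted p = 5.0e-05). SLC7A5, an amino acid transporter, had 563 and 528 CPM of footprints beside 1064 to 1324 (-1.15 ± 0.11). SARS1, a tRNA synthetase, went the other way in footprints, at 225 and 195 CPM beside 130.2 to 147 (0.60 ± 0.08), while WARS1, another synthetase, fell in mRNA by 0.59 ± 0.07 and was below all 15 other target means (-0.55 ± 0.07).

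Of 24 immediate early genes, which answer growth signals within minutes, 1 rose and 9 fell in mRNA (median -0.37), and in the ratio 4 of 22 rose and 0 fell (median 0.38). The shares of all genes were 11.1% and 12.8% in mRNA, and 1.37% and 2.9% in the ratio. ZFP36, which destabilises AU-rich mRNAs, had 14.3 and 14.1 CPM of mRNA beside 30.9 to 39.1 (-1.26 ± 0.19), and JUNB, an AP-1 subunit, 32.2 and 33.9 CPM beside 54.7 to 75.7 (-1.02 ± 0.15). IER2 had a ratio higher by 0.98 ± 0.19 (adjusted p = 0.0024; 0.077 without RPS9 replicate 1). MYC, a growth-promoting transcription factor, had 148 and 162 CPM of mRNA beside 174 to 222 (-0.39 ± 0.10, adjusted p = 0.0057; 0.15 without RPS9 replicate 1), and its footprints were not called (0.06 ± 0.13, adjusted p = 0.75). Against the other knockdowns 6 of the 24 were lower in mRNA and 1 was higher, beside 2.26% and 1.91% of all genes.

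Small nucleolar RNA host transcripts fell for 7 of 16 in mRNA and rose for 0 (median -0.35), while 12.8% of all genes fell and 11.1% rose. SNHG5 was at 45.8 and 50.9 CPM beside 69.6 to 104 (-0.84 ± 0.12), and SNHG12 fell by 0.75 ± 0.14. Of 41 factors of 40S assembly 5 rose and 3 fell in mRNA and 7 rose and 7 fell in footprints, near the shares of all genes.

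TPM4, a tropomyosin of actin filaments, and ACTA2, smooth muscle actin, were among the largest mRNA rises. TPM4 had 767 and 768 CPM of mRNA beside 105 to 157 (2.49 ± 0.09, adjusted p = 8.9e-16) and 134 and 112 CPM of footprints beside 33.8 to 47.4 (1.64 ± 0.10). ACTA2 had 35.3 and 37.2 CPM of mRNA beside 6.01 to 8.82 (2.38 ± 0.11, adjusted p = 4.2e-14) and 68.2 and 61.6 CPM of footprints beside 8.78 to 14.1 (2.56 ± 0.12). TPM3, another tropomyosin, fell in mRNA, at 259 and 253 CPM beside 413 to 456 (-0.76 ± 0.07). In the whole list 3 of 14 rose and 3 fell in mRNA (11.1% and 12.8% of all genes), and 8 of 15 rose and 2 fell in footprints (15.5% and 18.7%). In the other knockdowns the TPM4 target means ran from 420.4 to 867 CPM of mRNA, so the gene was above all 6 controls there too. The summed mRNA of the fibroblast markers, cells that express ACTA2, was 15.9 and 16.3 CPM beside 18.1 to 33.5 CPM in the controls, and their summed footprints were 21.4 and 40.4 CPM beside 22.3 to 28.6, so that 1 RPS9 lysate was below and 1 above all controls.

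Of the lung and A549 markers 2 of 10 rose and 1 fell in mRNA (11.1% and 12.8% of all genes). In footprints 4 of 9 rose and 1 fell (15.5% and 18.7%). ALDH3A1, an aldehyde dehydrogenase, had 1723 and 1771 CPM of mRNA beside 405 to 1330 (1.24 ± 0.25, adjusted p = 6.0e-04) and 4122 and 3740 CPM of footprints beside 822 to 1700 (1.54 ± 0.17, adjusted p = 8.4e-08). CDH1, E-cadherin, was lower, at 24.2 and 23.6 CPM of mRNA beside 31.9 to 70.9 (-1.05 ± 0.22) and 27.9 and 28.0 CPM of footprints beside 46.6 to 102 (-1.39 ± 0.22).

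The comparison with the 15 other knockdowns asked which genes set RPS9 apart. It called 290 genes higher and 343 lower in mRNA (4.17% of all tested), 578 and 574 in footprints (9.26%), and 8 and 11 in the ratio (0.0655% and 0.0901%). Of all genes tested, 2.19% had an RPS9 mean above all 15 target means in mRNA and 2.59% below, and 3.28% and 3.43% in footprints. Among the called genes, 94 and 157 in mRNA and 201 and 231 in footprints had such a mean. The counts were 33 and 78 for mRNA and 182 and 188 for footprints without RPS9 replicate 1, and 38 and 86 for mRNA and 93 and 126 for footprints without replicate 2. The ratio had 17 and 6 calls without RPS9 replicate 1 and, by edgeR, 0 and 0 without replicate 2 (375 genes at an unadjusted p under 0.05; DESeq2 with both replicates called 23 and 30). Without control 20 replicate 2 they were 840 and 791 for mRNA and 33 and 42 for the ratio, and without control 21 replicate 1 or 2 the higher footprint count was 976 or 872.

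Several genes had a lower mean after RPS9 knockdown than in any of the 15 other knockdowns. METAP2, which removes the initiator methionine from new proteins, had 26.1 and 21.8 CPM of footprints, 187 to 263 in the controls and target means of 119 to 264 in the other knockdowns. The differences were -3.20 ± 0.20 against control (adjusted p = 1.3e-12) and -3.01 ± 0.19 against the other knockdowns (adjusted p = 8.1e-12). METAP2 mRNA was at 13.8 and 10.0 CPM beside 21.9 to 115 in the controls and 28.0 to 109.8 in the other knockdowns (-2.52 ± 0.40 and -2.31 ± 0.37; the second had an adjusted p = 0.056 without RPS9 replicate 2).

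WEE1, the kinase that holds CDK1 inactive before mitosis, had 9.23 and 8.35 CPM of footprints, 61.8 to 75.4 in the controls and 14.4 to 65.6 in the other knockdowns. The differences were -2.96 ± 0.14 (adjusted p = 8.0e-15) and -2.17 ± 0.13 (adjusted p = 8.1e-12). WEE1 mRNA was at 14.6 and 13.1 CPM beside 41.2 to 58.5 (-1.78 ± 0.15), and the RPL15 knockdown was lower at 13.2 CPM. The WEE1 ratio was -0.64 and -0.62 beside 0.30 to 0.73 in the controls and 0.11 to 0.82 in the other knockdowns (-1.19 ± 0.17, adjusted p = 6.6e-05, and -1.07 ± 0.15, adjusted p = 8.5e-04; the second was 0.22 without RPS9 replicate 2).

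UBE2D1, a ubiquitin-conjugating enzyme, had 9.93 and 9.93 CPM of footprints beside 29.8 to 48.1 in the controls and 15.2 to 59.1 in the other knockdowns (-1.89 ± 0.16 and -2.20 ± 0.16). SDC1, the proteoglycan syndecan 1, had 89.4 and 85.7 CPM of footprints beside 148 to 205 in the controls and 216 to 365 in the other knockdowns (-1.05 ± 0.13 and -1.58 ± 0.13). Its mRNA was at 102 and 108 CPM beside 166 to 323 and 229.7 to 423 (-1.04 ± 0.17 and -1.57 ± 0.17). By mean the SDC1 order was RPS9 lowest, then the controls (217 CPM of mRNA and 181 of footprints), then all 15 other knockdowns. In mRNA the single control values overlapped those target means. NDUFA8, a subunit of respiratory complex I, had 49.6 and 50.4 CPM of footprints beside 95.5 to 123 and 107 to 160.5 (-1.11 ± 0.10 and -1.35 ± 0.09).

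PSMA2, a proteasome subunit, had 18.1 and 15.6 CPM of mRNA beside 39 to 63.7 in the controls and 39.9 to 71.5 in the other knockdowns (-1.62 ± 0.15 and -1.59 ± 0.15), and its count is uncertain because it shares exons with a read-through transcript. HNRNPR, an RNA-binding protein, and RASA1, a GTPase-activating protein for Ras, were named after their values were seen. HNRNPR footprints were at 140.4 and 149 CPM beside 346 to 418 and 265 to 363 (-1.39 ± 0.09 and -1.13 ± 0.09), and RASA1 footprints at 15.2 and 19.1 CPM beside 36.5 to 69.9 and 35 to 67.1 (-1.53 ± 0.20 and -1.52 ± 0.18). ASIC1, an acid-sensing ion channel, had 1.58 and 1.64 CPM of mRNA beside 8.93 to 17.9 and 3.90 to 14.9 (-2.79 ± 0.24 and -2.61 ± 0.23), and KMT5A, a histone H4 methyltransferase, 17.7 and 18.7 CPM beside 55.2 to 75.2 and 21.5 to 61.9 (-1.84 ± 0.10 and -1.31 ± 0.09). With 1 mean per target, METAP2, SDC1, NDUFA8, PSMA2, HNRNPR and RASA1 footprints and SDC1, NDUFA8 and PSMA2 mRNA still differed from the other knockdowns at an adjusted p under 0.05 by limma. Effects of losing RPS9 and effects of the RPS9 siRNA on other mRNAs cannot be told apart in this design.

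**Figure D4:**
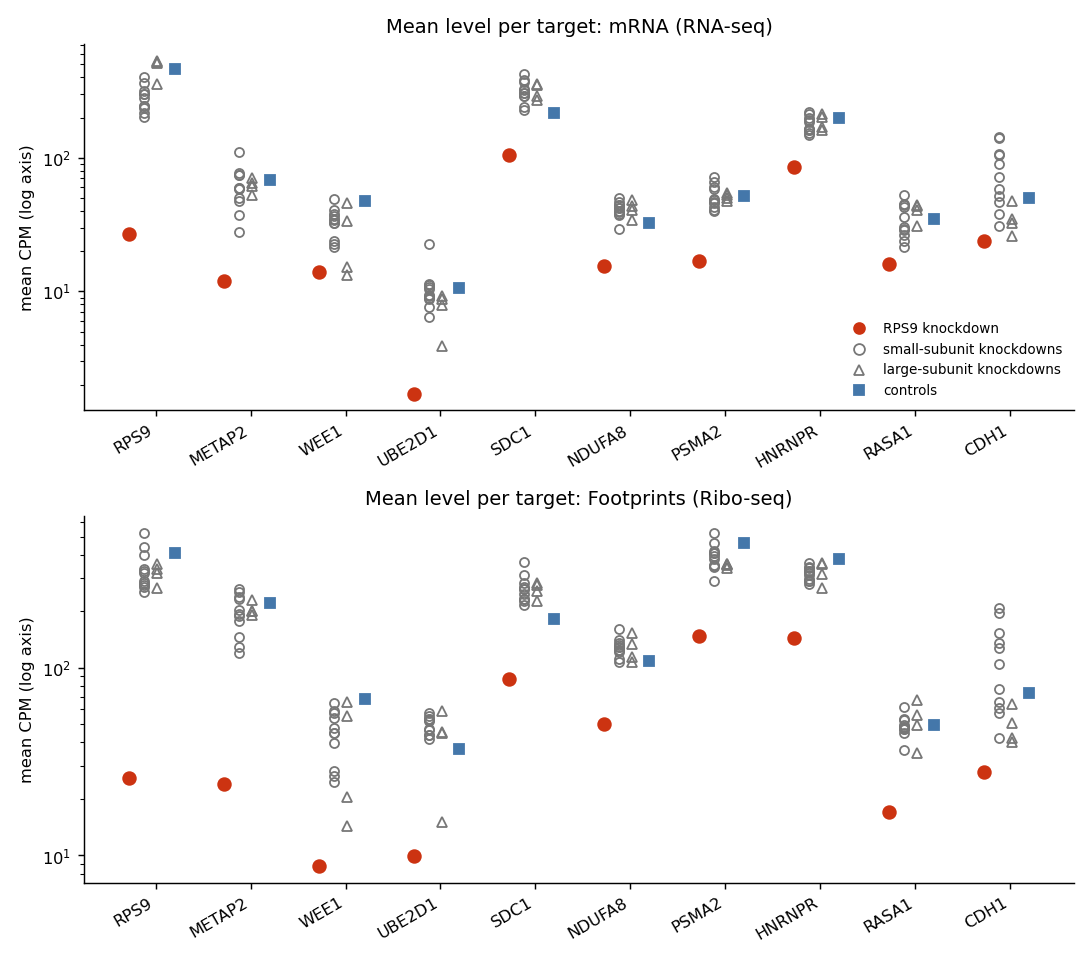
Mean level per target of RPS9 and 9 genes that were low after RPS9 knockdown, in CPM on a log axis, for mRNA (top) and footprints (bottom); the red circle is RPS9, open circles and triangles are the other small- and large-subunit knockdowns (2 lysates each), and the blue square is the mean of the 6 controls. The RPS9 point is below all 15 others in both panels, except for WEE1 mRNA, where RPL15 is lower at 13.2 CPM beside 13.9.

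Other genes had an RPS9 mean above all 15 other target means. DIO2, which activates thyroid hormone, had 36.4 and 24.6 CPM of mRNA beside 2.34 to 7.41 in the controls and 4.26 to 28.7 in the other knockdowns (2.64 ± 0.27 and 1.53 ± 0.23; the second had an adjusted p = 0.087 without RPS9 replicate 1). BDNF, a neurotrophin, had 31.3 and 27.8 CPM beside 6.13 to 12.1 and 8.64 to 24.7 (1.56 ± 0.15 and 1.04 ± 0.13). MAP2K6, a kinase that activates p38, had 45.7 and 42.5 CPM beside 20.1 to 31.7 and 11.3 to 37 (0.70 ± 0.15 and 1.09 ± 0.12).

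Some genes had many footprints and little mRNA. P2RY8, CACNA1B, FSCN2 and TTN passed the filter on low counts only through the RPS9 libraries, where they are high, so their levels are a description and support no count. P2RY8, a receptor of lymphoid cells, had 89.6 and 127 CPM of footprints in the RPS9 lysates, 4 counts in all in the 6 controls, and at most 0.132 CPM of mRNA in these 8 libraries. CACNA1B, a neuronal calcium channel, had 30.4 and 40.7 CPM of footprints and 13 counts in all in the controls. FSCN2, a retinal fascin, had 21.4 and 53.9 CPM of footprints and 10 counts in all in the controls, with mRNA at 1.70 and 1.57 CPM beside 0.844 to 1.59. No fold is given for these genes, since the control counts are close to 0.

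TTN, the giant sarcomere protein, had 43.5 and 3.46 CPM of footprints, so the RPS9 lysates differed widely, and at most 0.532 CPM in the controls. HBB, beta globin, had 14.7 and 22.6 CPM of footprints beside 0 to 2.45, and TSKS, a testis kinase substrate, 23.7 and 29.4 CPM beside 0 to 11.5 (adjusted p = 0.016; 0.057 and 0.11 without RPS9 replicate 1 and 2). RPS9 had the highest footprint mean of all 16 targets for each of these genes except HBB. The next was RPS26 for P2RY8 at 55.6 CPM, CACNA1B at 9.20, FSCN2 at 17.4 and TTN at 1.58, and RPS12 for TSKS at 23.3, while RPS26 exceeded RPS9 for HBB at 119 CPM. KIF7, whose ratio is described above, had 13.7 and 35.7 CPM of footprints beside 1.82 to 7.51 in the controls, with RPS26 next at 24.5. KIF7 mRNA was at 8.29 and 9.20 CPM beside 4.9 to 8.9 in the controls. The summed footprints of the blood cell markers, HBB among them, were 21.3 and 27.3 CPM beside 1.77 to 7.63. HBB made up most of that difference: CD14, a monocyte marker, had 6.33 and 4.70 CPM beside 1.74 to 6.49, LYZ and PTPRC were near 0, the T cell marker CD3E had no footprints in these 8 libraries, and their part in the result was not tested.

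**Figure D5:**
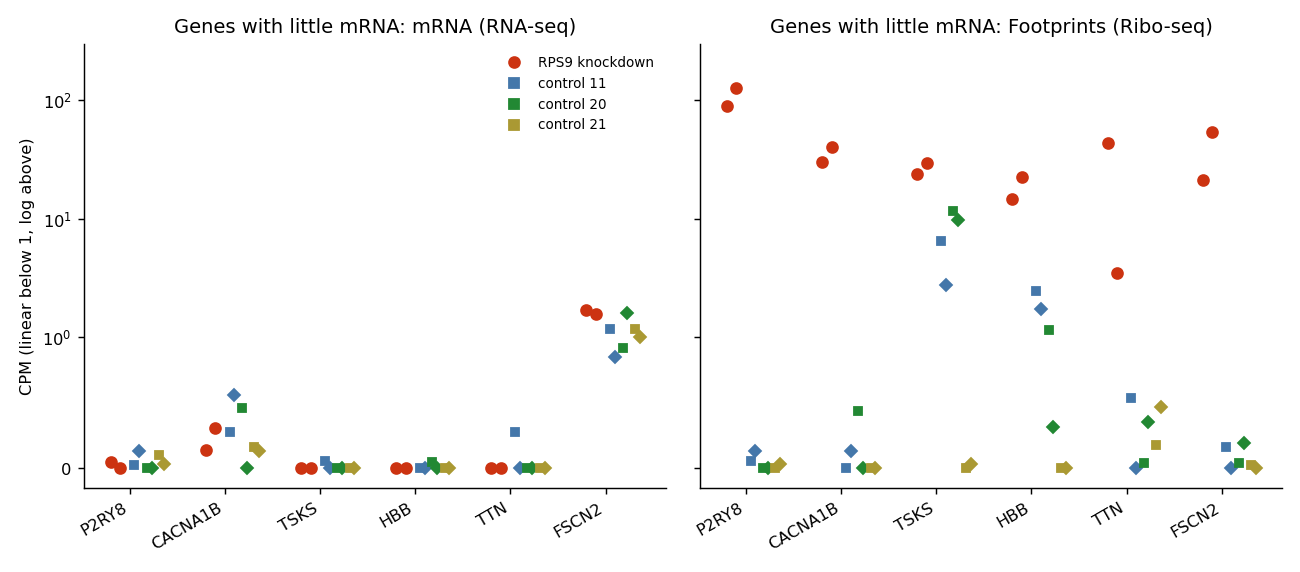
Levels of 6 genes with little mRNA in each library, in CPM on an axis that is linear below 1 and logarithmic above, for mRNA (left) and footprints (right); red circles are the RPS9 lysates, squares and diamonds replicates 1 and 2 of controls 11, 20 and 21. In footprints the RPS9 lysates lie above all controls for each gene, as for P2RY8 at 89.6 and 127 CPM, and in mRNA FSCN2 alone reaches 1 CPM.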

How the data were processed

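RNA-seq and Ribo-seq were made from aliquots of the same lysates, per the labels' protocols. The authors deposited 1 table of raw counts per gene for each assay, over exons for mRNA and over coding sequence for footprints per the file names, so the ratio sets different regions against each other. GRCh38, STAR 2.6.1, cutadapt 1.8.1 and bcl2fastq 2.20.0.422 were used per the submitters' processing notes, and footprints of 28 to 30 nt were selected per the labels' protocols. The counting program, with its strand setting and annotation, is not given in the sources used here.

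Deposited counts were tested with edgeR 4.0.16 (R 4.3.3): TMM scaling, a minimum of 1 CPM in 2 or more of the 8 libraries, and a quasi-likelihood fit of 38 libraries per assay (16 targets with 2 libraries each and 6 controls) with 1 mean per target, adjusted by Benjamini-Hochberg at 0.05. The ratio was tested in 1 model over both assays with the lysate as a block. Log2 ratios per lysate used a pseudocount of 0.5 CPM. The last control pair is named 21_1 and 21_2 in the tables and titled 21 and 22 in the labels, and entered as 2 controls. Alternatives used limma 3.58.1 and DESeq2 1.42.0. Fits were tested on simulated data, where at a log2 change of 1 they recovered 100 of 100 changed genes for mRNA, 97 for footprints and 81 for the ratio. The simulated libraries shared 1 spread, with no differences between control numbers and no outlying library, so they do not test that part of the error.

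Genes were named by a rule: the 8 largest called changes in each direction at a mean of at least 5 CPM, the 3 smallest p in each list with at least 3 called members, RPS9, CDKN1A, MDM2 and MYC, and against the other knockdowns the 6 largest in each direction. Some genes the rule picked are not reported here. Members and lists were chosen with earlier results of these data known. APAF1, CCNG1, EEF2, HEXIM1, HNRNPR, RASA1, RPL5, RPL41, RPS3, RPS12 and RPS27A, and values of named genes in an assay where the rule did not pick them, were added after their values were seen. Depth sets a floor of 3 counts, 0.0706 to 0.0977 CPM in RNA-seq and 0.0716 to 0.199 CPM in Ribo-seq, which covers counting error only.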

Additional observations from a re-analysis of the deposited data

Results flagged for a closer look

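In 15 of 217 groups of 6 control values, 1 control lysate stood far from the other 5, where chance flags about 1 in 20 groups. Of these, 13 were control 20 replicate 2. In mRNA it was the highest control for H2BC17 (536 CPM, next 336), RPS20 (804 CPM, next 631), ACTA2 (8.82 CPM, next 6.99) and ASIC1 (17.9 CPM, next 10.4), and the lowest for EIF4B (441 CPM, next 573).

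In the log2 ratio of footprints to mRNA the same lysate was the highest control for MDM2 (0.25, next -0.88), NETO2 (-0.55, next -1.36), RRM2 (1.53, next 1.17) and XPOT (-0.39, next -1.35). It was the lowest for FOXM1 (-3.03, next -2.64), RPS19 (0.82, next 1.41), RPL19 (-1.11, next -0.62) and EEF2 (-0.20, next 0.33). The other 2 were XPC mRNA in control 11 replicate 1 (30.8 CPM, next 27.6) and CACNA1B footprints in control 20 replicate 1 (0.435 CPM, next 0.133).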

How the results depend on the processing

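Counts are given as higher and lower. Against control, leaving out 1 library at a time gave 813 to 2427 and 678 to 2523 for mRNA, 1241 to 2461 and 1181 to 2439 for footprints, and 33 to 416 and 37 to 526 for the ratio. Against the 15 other knockdowns it gave 33 to 840 and 78 to 791, 93 to 976 and 126 to 680, and 0 to 33 and 0 to 42. With 1 mean per target or control number (limma, chosen after seeing the data) the counts were 0 and 0, 3 and 3, and 2 and 0 against control, and 0 and 4, 1 and 8, and 0 and 0 against the others. With the columns named 21_1 and 21_2 as separate control numbers, also chosen after seeing the data, they were 0 and 0, 3 and 2, and 1 and 0 against control. The 8 libraries alone gave 90 and 57, 820 and 917, and 4 and 3. Controls 11 and 20 alone gave 2982 and 3331 for mRNA, 3079 higher for footprints, and 384 and 661 for the ratio; without both control 20 libraries, also chosen after seeing the data, mRNA gave 2892 and 3031 and the ratio 765 and 673.

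With no filter on low counts 1258 genes were lower in mRNA against control, and against the others 161 and 208 were called in mRNA, 1223 higher in footprints and 17 higher in the ratio. A filter of 10 CPM left 4 higher ratios against the others. DESeq2 called 252 higher ratios against control and 23 and 30 against the others, and no lysate block gave 212 lower ratios against control and 17 higher against the others. The causes were not tested.

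With the replicate number as a replicate block the counts against control were 1635 and 1881 for mRNA, 1921 and 2307 for footprints and, by limma, 169 and 365 for the ratio, and no call of a named gene was lost. Same-numbered lysates of RPS9 and controls 11, 20 and 21 deviated with correlations of -0.135, 0.674 and 0.141 in RNA-seq. In Ribo-seq they were 0.0179, 0.0837 and -0.324. The value of 0.674 involves control 20 replicate 2, which stood apart, so whether the numbers pair the samples is not settled. Replicate differences in RNA-seq and Ribo-seq of the same lysates correlated at -0.399 for RPS9 and at 0.00649, -0.277 and 0.191 for controls 11, 20 and 21. A deviation shared by both assays would give positive values, so it was not seen for RPS9 and control 20, and the value of control 11 was near 0. The replicate numbers of control 21 are those of the tables. Sign changes occurred only in uncalled differences: ANPEP mRNA 0.19 with 21_1 and 21_2 as separate numbers, MYC footprints -0.015 with controls 11 and 20, and MYC footprints -0.017 and the RPS9 ratio -0.14 without both control 20 libraries. Leaving out 1 library at a time gave -0.0051 to 0.18 for MYC footprints and -0.044 to 0.21 for the RPS9 ratio.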

Other observations

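In footprints 15.5% of all genes tested rose and 18.7% fell against control. Sterol synthesis genes fell against control in footprints for 8 of 25 and rose for 1 (median -0.26), and against the 15 other knockdowns 6 were higher and 0 lower (4.64% and 4.61% of all genes). EBP, a sterol isomerase, had 99.5 and 86.4 CPM of footprints beside 129 to 208 (-0.86 ± 0.13, adjusted p = 1.1e-05 by edgeR's quasi-likelihood test). Of 18 heat shock chaperones 1 rose and 7 fell in footprints. HSPA1A, an inducible chaperone with a near-identical neighbouring copy, had 25.8 and 26 CPM of mRNA beside 51.9 to 98.5 (-1.36 ± 0.20).

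Of 24 interferon response genes 6 rose and 2 fell in footprints (median 0.24). Of 40 translation initiation factor genes 8 rose and 4 fell in footprints, not far from the shares of all genes. EIF3F, a subunit of eIF3, had 134 and 120.1 CPM of footprints beside 60.4 to 86.3 (0.86 ± 0.11), and EIF4EBP2, a repressor of cap binding, had 7.35 and 4.56 CPM beside 12.6 to 18.3 (-1.30 ± 0.18). Of 42 factors of 60S assembly 8 rose and 7 fell in footprints, and of 49 mitochondrial ribosomal protein genes 7 rose and 8 fell, near the shares of all genes.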
